A study of Homo sapiens with 4 samples.

Results

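The cytosolic ribosomal protein genes, which encode the protein parts of the ribosome that translates nuclear mRNAs, were described in 4 RNA-Seq libraries of a melanoma cell line carrying an inducible MYC gene or an empty vector, with and without the inducing drug. Members were taken by symbol, as RPL or RPS followed by a number with or without a final A or X, as RPLP followed by a digit, or as RPSA. This gave 77 of the 25268 gene symbols in the table, 46 for the large (60S) subunit and 31 for the small (40S) subunit. The symbol of FAU, which encodes a small subunit protein fused to a ubiquitin-like protein, does not follow this pattern, and FAU was placed among related genes. All 77 members passed a filter that required 1 FPKM or more on average, as did 11147 genes in all, and these are called the tested genes.

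SK-MEL-28 cells come from a human melanoma and are an established line. They were transduced with a lentivirus carrying either the empty pTRIPZ vector (vector cells) or MYC behind a Tet-inducible promoter (MYC-inducible cells). Both lines were selected for transduced cells with the drug G418 (geneticin). Each was left without doxycycline (Dox), the drug that switches the Tet promoter on, or was given Dox for 54 h, and both keep their own MYC gene. Each of the 4 conditions has 1 library, so differences could not be checked against replicates and were not tested. FPKM counts the sequenced fragments of a gene per kilobase of its transcript and per 1000000 fragments mapped, and is thus a level already divided by length. Approximate depth, read from the smallest values, was between 34700000 and 42800000 fragments. MYC itself had 58.3 FPKM in the vector cells without Dox, 54.8 with Dox, 76.5 in the MYC-inducible cells without Dox and 87.1 with Dox. Its log2 change with Dox was thus 0.19 in the MYC-inducible cells, under the 1.2-fold used here as the call, and without Dox it was already 0.39 higher in these cells than in the vector cells. The paper reports that Dox induced MYC in the MYC-inducible cells, with increased MYC mRNA by RT-PCR and higher activity of a MYC reporter. Why the change in FPKM was small was not tested. The cultured line showed its melanocyte origin, with a summed level of 8 melanocyte lineage markers between 4666 and 8578 FPKM, against at most 0.0621 FPKM for 4 blood markers, 0.207 FPKM for 4 fibroblast markers and 0.114 FPKM for 3 endothelial markers. Of 4 epithelial markers, summed at 33.3 to 49.8 FPKM, KRT18 made up most.

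The ribosome is built in the nucleolus from ribosomal RNA and its proteins, most of them present once per particle, and free ribosomal proteins are degraded. Most mRNAs of these proteins begin with a C followed by a run of pyrimidines, the 5′ terminal oligopyrimidine (TOP) tract, through which LARP1 and the mTOR kinase control their translation. MYC is known as an activator of ribosome production in many cell types, and binds the letters CACGTG, the E-box.

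The tract was visible at the annotated starts of the members. A C followed by at least 4 further pyrimidines stood exactly at the start of 58 of 77 members (75.3%), against 859 of 19977 other protein coding genes (4.30%). The run was between 5 and 19 bases long, with a median of 8. The starts shown here are those of the 6 members with the largest difference of the Dox changes between the lines, after RPL21, and of the 6 with the smallest, so that they can be set side by side. Each shows 15 bases before and the first 15 bases of exon 1, which are 5′ UTR, read 5′ to 3′ on the strand of the gene from GRCh37, with the TOP run in capitals. The first 6 had the largest differences, with each entry taken alone. With its pseudogene entries added, as described below, RPL13A ranked only 32 by this difference.
RPL13A (chr19:49990850-49990879, plus strand): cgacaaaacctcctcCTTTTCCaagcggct
RPS24 (chr10:79793606-79793635, plus strand): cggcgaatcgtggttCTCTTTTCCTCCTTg
RPS27A (chr2:55459809-55459838, plus strand): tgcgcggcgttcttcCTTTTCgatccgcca
RPL14 (chr3:40498815-40498844, plus strand): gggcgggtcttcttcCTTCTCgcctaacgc
RPS2 (chr16:2014813-2014842, minus strand): ccagtaggtctcgttCTTCTTTTCCgacaa
RPL5 (chr1:93297582-93297611, plus strand): cgcaagggctgtggcCCTTTTCCCaccccc
RPS27 (chr1:153963223-153963252, plus strand): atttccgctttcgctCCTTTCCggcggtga
RPS28 (chr19:8386365-8386394, plus strand): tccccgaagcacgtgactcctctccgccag
RPL28 (chr19:55897285-55897314, plus strand): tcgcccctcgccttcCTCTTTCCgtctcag
RPLP1 (chr15:69745142-69745171, plus strand): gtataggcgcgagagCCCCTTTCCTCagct
RPS15 (chr19:1438380-1438409, plus strand): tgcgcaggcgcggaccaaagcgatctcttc
RPL37A (chr2:217363552-217363581, plus strand): gcaccgcgtctcttcCTTTCTgggctcgga
The TOP run was present in all 6 of the first group and in 4 of the second, with RPS28 and RPS15 as the exceptions at the annotated base.

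The letters CACGTG, which are the same on both strands, were found within 250 bases before to 50 bases after the start of 5 members (6.49%), against 8.74% of the other coding genes. These 5 windows are shown with the 6 letters in capitals, because the box is the sequence that MYC is known to bind.
RPL13A (chr19:49990632-49990661, plus strand): gcctccgcgcccCACGTGatctctcgccgg
RPL19 (chr17:37356293-37356322, plus strand): gttacagataacCACGTGattgggaaccct
RPL23 (chr17:37010033-37010062, minus strand): ttttgctccggcCACGTGaggagggtgggc
RPS2 (chr16:2014793-2014822, minus strand): tttccgacaaaaCACGTGagtcctgttggt
RPS28 (chr19:8386362-8386391, plus strand): ctctccccgaagCACGTGactcctctccgc
Counted from the start, the box began at -221 in RPL13A, -231 in RPL19, -76 in RPL23 and -6 in RPS28, and at 18, inside the transcript, in RPS2. Among these 5 members the change with Dox in the MYC-inducible cells ran from -0.02 for RPS28 to 0.61 for RPL13A on the log2 scale. Members with the letters thus stood at both ends when each entry was taken alone. With its pseudogene entries added, as described below, RPL13A changed by 0.31.

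Ribosomal protein mRNAs took a large part of the measured transcript level in every library. Their share of the summed FPKM was 27.9% in the vector cells without Dox, 27.9% in the vector cells with Dox, 27.4% in the MYC-inducible cells without Dox and 31.5% in the MYC-inducible cells with Dox. The library of the MYC-inducible cells with Dox was the high one and the other 3 lay close together. The median member had 2324, 2311, 2279 and 2844 FPKM in the same order, and 64, 64, 64 and 67 members exceeded 1000 FPKM. Of the 100 genes with the highest mean level, 62 were members.

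**Figure D1:**
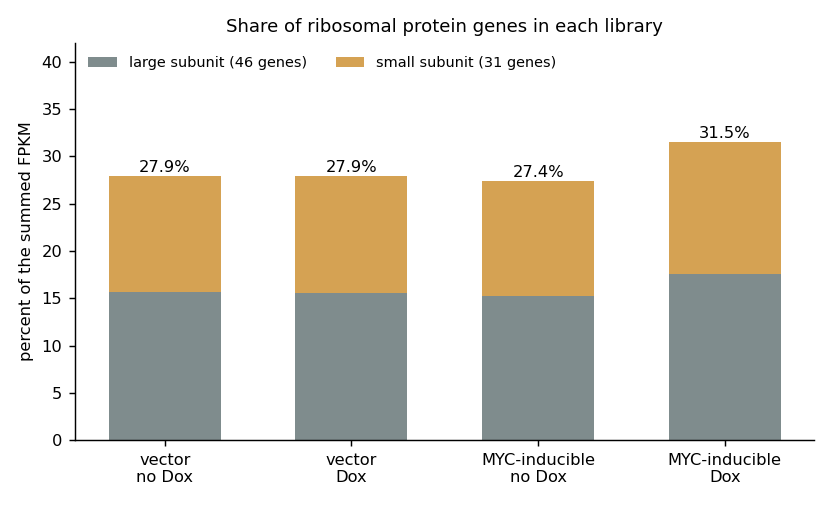
Share of the summed FPKM taken by the 46 large subunit genes (grey) and the 31 small subunit genes (ochre) in each of the 4 libraries, as a percent, with the total above each bar. The total was 27.9%, 27.9% and 27.4% in the first 3 libraries and 31.5% in the MYC-inducible cells with Dox.

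The subunits kept their proportion. Large subunit genes held 15.6%, 15.6%, 15.3% and 17.6% of the summed FPKM and small subunit genes 12.3%, 12.3%, 12.1% and 13.9%, in the order above. The ratio of large to small was 1.27 in the first library and 1.26 in the other 3. The remaining genes summed to between 490220 FPKM, in the MYC-inducible cells with Dox, and 512760 FPKM, in the vector cells with Dox. Within those genes the summed level of the 8 melanocyte lineage markers was lower in the library with the high share, at 8578, 8467, 8433 and 4666 FPKM. PMEL, a melanosome protein, made up most of the sum, at 6176, 6227, 6178 and 3394 FPKM. DCT was not lowest in that library, with 65.1 FPKM there and 61.9 FPKM in the vector cells with Dox. The part of the lower sum in the share was not tested. In a bulk culture, fewer cells of a kind and less RNA per cell cannot be told apart.

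In the MYC-inducible cells, Dox went with a shift of nearly the whole set upward. On the log2(FPKM + 0.1) scale, which understates the change of low genes, the median member was 0.29 higher with Dox (1.22-fold), and the quartiles were 0.18 and 0.36. A level was higher with Dox for 75 of 77 members, against 46.8% of all tested genes, whose median change was -0.03. At least 1.2-fold higher were 41 members, against 21% of all tested genes, and at least 1.2-fold lower were 0 members, against 26.1%. At least 1.5-fold higher were only RPL21 and RPL13A, against 5.9% of all tested genes, and 0 members were 1.5-fold lower, against 8.85%. The set thus moved by a small amount. The robust SD of its members was 0.12, against 0.36 for all tested genes. In the vector cells it was 0.0448 for the members and 0.107 for all tested genes. The members thus lay closer together than all tested genes in both lines, and were more spread in the MYC-inducible cells than in the vector cells. All tested genes include genes near 1 FPKM, where fewer fragments are counted, and the spreads were not compared at like levels.

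**Figure D2:**
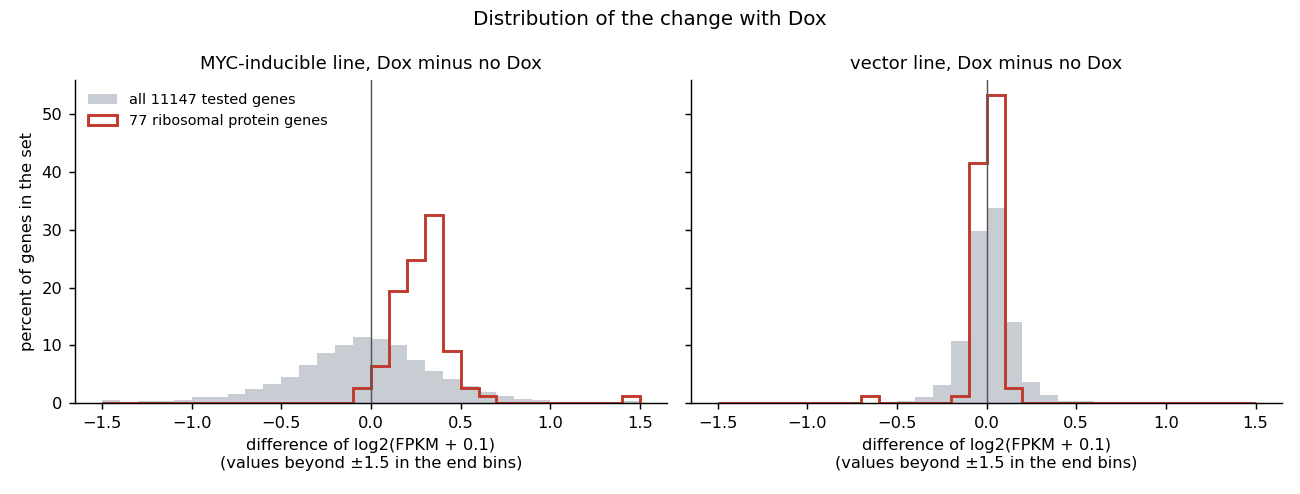
Histograms of the change with Dox, as a difference of log2(FPKM + 0.1), in the MYC-inducible cells (left) and the vector cells (right), as a percent of the 77 members (red outline) and of all 11147 tested genes (grey). The members center at 0.29 on the left and 0.01 on the right, and the single member in the end bin on the left is RPL21.

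The vector cells received the same drug without the MYC insert. Their median member changed by 0.01 with Dox, and 43 of 77 were higher, against 54.2% of all tested genes. At least 1.2-fold higher were 0 members, against 3.61%, and at least 1.2-fold lower was 1 member, RPL21, against 2.83%. The median difference of both changes, MYC-inducible cells minus vector cells, was 0.27, against -0.04 for all tested genes.

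The lines were also compared with each other, using the same 4 libraries. With Dox in both, the median member was 0.22 higher in the MYC-inducible cells, and 70 of 77 were higher, against 49.2% of all tested genes. In this comparison 27 members were at least 1.2-fold higher, against 22.6% of all tested genes, and 0 were 1.2-fold lower, against 24.7%. The share of members past 1.2-fold upward was therefore closer to the background here than within the MYC-inducible cells. Without Dox in either line, the median member differed by -0.05 in the MYC-inducible cells against the vector cells. Of the 77, 8 were higher, against 59.5%, 0 were at least 1.2-fold higher, against 4.32%, and 1, RPL21, was at least 1.2-fold lower, against 1.83%. The spread of this last comparison over all tested genes, a robust SD of 0.106, was used as the yardstick of how far a gene differs between 2 libraries without the treatment. It is not a replicate error, since the lines differ in MYC level also without Dox. It measures single genes and was not applied to medians of lists. Over the members alone the robust SD of this comparison, without RPL21, was 0.0451.

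The MYC-inducible cells with Dox held the highest of the 4 levels for 68 of 77 members, against 40.2% of all tested genes. The 9 others were highest in the vector cells with Dox (RPL28, RPL37A, RPS15, RPS27 and RPS28) or without it (RPL21, RPL41, RPS20 and RPL31, the last named only because it is in this count). Approximate counting errors of the change, for the 76 members other than RPL21, were between 0.00501 and 0.0251 on the log2 scale, and cover the sampling of fragments only. The call at 1.2-fold divided members whose changes were nearly equal, such as RPL7A at 0.27 just inside and RPL9 at 0.26 just outside, both named for lying nearest to the threshold.

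**Figure D3:**
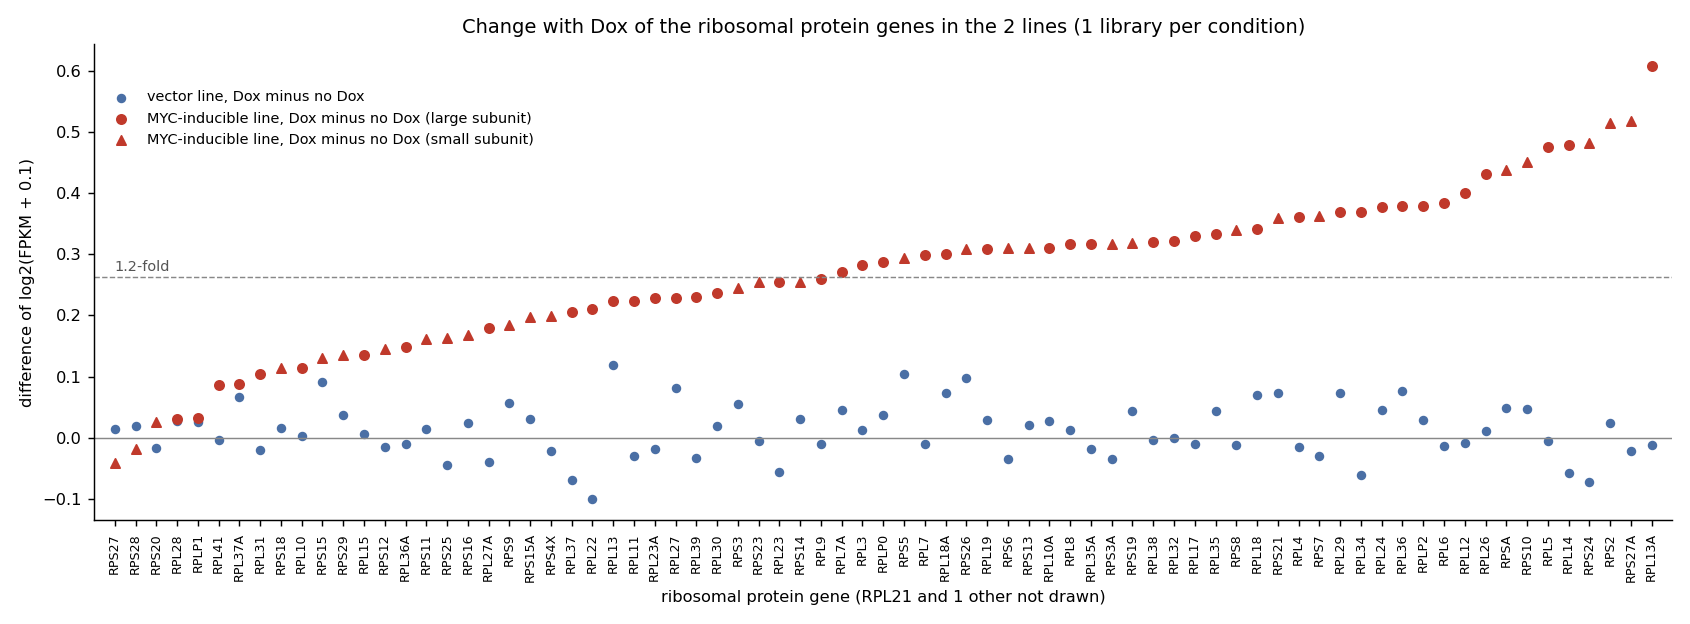
Change with Dox, as a difference of log2(FPKM + 0.1), of the members, without RPL21 and 1 other that is not reported here, sorted by their change in the MYC-inducible cells (red, circles for the large and triangles for the small subunit), and their change in the vector cells (blue). Red points run from -0.04 for RPS27 to 0.61 for RPL13A and blue points stay between -0.10 and 0.12. The dashed line marks 1.2-fold.

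Both subunits took part. The median change in the MYC-inducible cells was 0.30 for the 46 large subunit genes, 27 of them past 1.2-fold and 46 higher. It was 0.25 for the 31 small subunit genes, 14 of them past 1.2-fold and 29 higher. Of all tested genes, 21% were past 1.2-fold upward and 46.8% were higher. In the vector cells the medians were 0.00 and 0.02. The difference between the subunits was not tested.

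Of the members with the largest difference between the lines, RPS24, a small subunit protein mutated in some patients with Diamond-Blackfan anemia, had 2159 FPKM in the vector cells without Dox, 2052 with Dox, 2041 in the MYC-inducible cells without Dox and 2853 with Dox. The last library stood apart and the other 3 lay within a narrow band. Its change with Dox was 0.48 (1.40-fold) in the MYC-inducible cells and -0.07 in the vector cells. RPS27A, whose product is ubiquitin fused to a small subunit protein, had 1881, 1852, 1759 and 2521 FPKM in the same order, a change of 0.52 (1.43-fold) against -0.02. RPS2, a small subunit protein near the entry of the mRNA channel, had 4136, 4206, 3865 and 5523 FPKM, a change of 0.52 (1.43-fold) against 0.02. RPS2 was also the ninth highest member by mean level, and here a high level and a large change went together.

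Among large subunit members, RPL14 had 1429, 1373, 1338 and 1866 FPKM, a change of 0.48 (1.40-fold) in the MYC-inducible cells and -0.06 in the vector cells. RPL34 had 613, 588, 600 and 775 FPKM, a change of 0.37 (1.29-fold) against -0.06. In both genes the MYC-inducible cells with Dox were highest and the other 3 libraries lay close together. RPL5, which with RPL11 and 5S ribosomal RNA forms the 5S particle that can bind and inhibit MDM2, had 1260, 1255, 1234 and 1716 FPKM, a change of 0.48 (1.39-fold) against -0.01. Its partner RPL11 had 4512, 4421, 4221 and 4932 FPKM, a change of 0.22 (1.17-fold) against -0.03. The order of the libraries was alike in both partners at the top, but RPL11 did not pass 1.2-fold and RPL5 did.

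**Figure D4:**
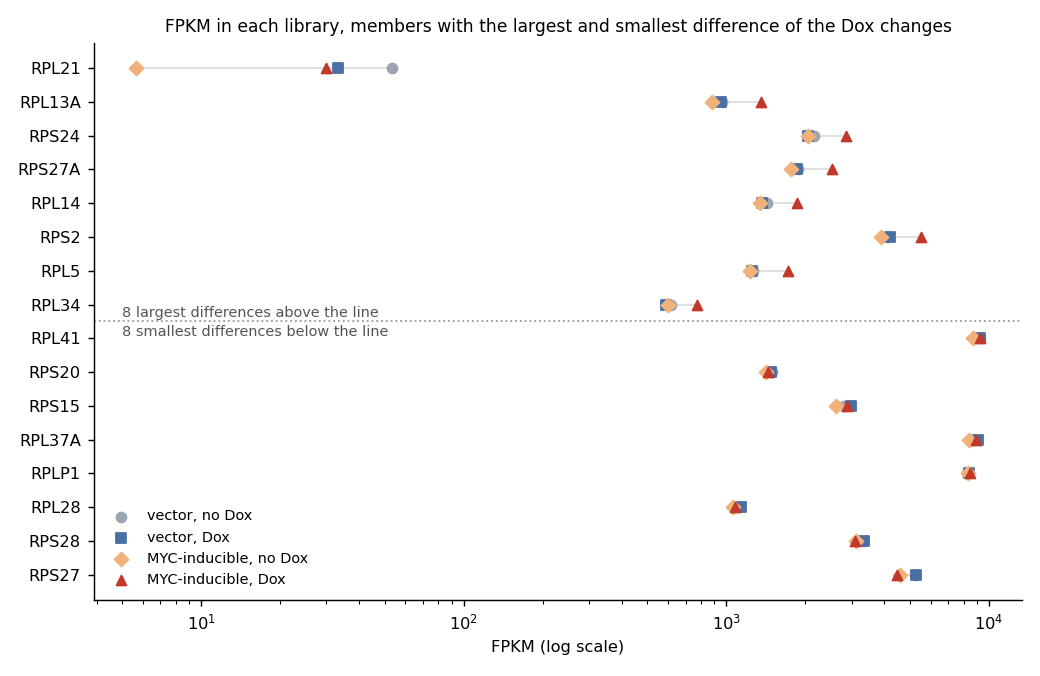
FPKM (log scale) in each library of the 8 members with the largest and the 8 with the smallest difference of the Dox changes, MYC-inducible cells minus vector cells. In the upper group, other than RPL21, the red triangle of the MYC-inducible cells with Dox stands to the right of the other 3 points, and in the lower group the 4 points lie close together.

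The members with the smallest difference between the lines included several of the most abundant. RPS27, a zinc finger protein of the small subunit, had 5233 FPKM in the vector cells without Dox, 5287 with Dox, 4594 in the MYC-inducible cells without Dox and 4465 with Dox, a change of -0.04 in the MYC-inducible cells. Here the lines separated and Dox did not: with Dox in both, RPS27 differed by -0.24 in the MYC-inducible cells against the vector cells. RPS28, a small subunit protein at the exit of the mRNA channel, had 3311, 3356, 3117 and 3077 FPKM, a change of -0.02. RPL28, of the large subunit, had 1116, 1137, 1058 and 1081 FPKM, a change of 0.03 in both lines. None of the Dox changes of these 3 members was larger than the yardstick.

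RPLP1, which belongs to the acidic stalk that recruits translation factors to the ribosome, had 8215, 8362, 8312 and 8499 FPKM, a change of 0.03 (1.02-fold) in the MYC-inducible cells. Its stalk partners differed from it. RPLP2 had 3878, 3956, 3832 and 4987 FPKM, a change of 0.38 (1.30-fold), and RPLP0, which anchors the stalk on the particle, had 2789, 2860, 2813 and 3434 FPKM, a change of 0.29 (1.22-fold). In RPLP2 and RPLP0 the MYC-inducible cells with Dox were clear of the other libraries, and in RPLP1 all 4 libraries lay close together.

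RPL41, the shortest member with 25 residues, had the highest mean level, at 9262, 9240, 8720 and 9261 FPKM. Its change was 0.09 in the MYC-inducible cells, which with Dox had the level of the vector cells. RPL37A, a zinc-binding protein of the large subunit, had 8643, 9056, 8398 and 8921 FPKM, a change of 0.09 in the MYC-inducible cells and 0.07 in the vector cells. RPS18, of the head of the small subunit, had 5960, 6027, 5945 and 6433 FPKM, a change of 0.11. RPS12, also of the small subunit head, had 4903, 4851, 5250 and 5802 FPKM, where both libraries of the MYC-inducible cells were above both of the vector cells. RPS15 had 2797, 2978, 2622 and 2870 FPKM, with a Dox change of 0.13 in the MYC-inducible cells and 0.09 in the vector cells. RPS20 had 1497, 1478, 1420 and 1446 FPKM, a change of 0.03. None of these 6 members passed 1.2-fold in either line.

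Set against level, the 8 most abundant members had a median change of 0.10 in the MYC-inducible cells. Of these 8, 1 was past 1.2-fold, against 21% of all tested genes. The other 69 had a median of 0.30, with 40 past it. This split was chosen after the values were seen. Over 76 members without RPL21, Spearman's rho between the change in the MYC-inducible cells and the mean level was -0.15, and between that change and protein length 0.37. These are descriptions over genes that share the same libraries. The 9 members of at most 100 residues had a median change of 0.13, with 2 past 1.2-fold, against 21% of all tested genes. The 22 members over 200 residues had a median of 0.31, with 17 past it. Protein length stands here for the coding length, and shorter transcripts give fewer fragments. How far the sequencing of short transcripts entered was not tested.

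The lowest members were spread over both subunits. Leaving RPL21 aside, RPL13 had 278, 302, 267 and 311 FPKM, a change of 0.22 in the MYC-inducible cells and 0.12 in the vector cells. RPS23, a protein of the decoding center, had 363, 362, 342 and 408 FPKM, a change of 0.25. RPL27A had 456, 443, 451 and 511 FPKM, a change of 0.18, and RPL15 had 525, 527, 498 and 547 FPKM, a change of 0.14. In all 4 genes the MYC-inducible cells with Dox were highest, by less than 1.2-fold over the same line without Dox. Between the lowest of these and RPL41 the levels spanned more than an order of magnitude. Leaving out RPL21, the SD of the log2 level over members was 1.03 in 3 libraries and 1.02 in the MYC-inducible cells with Dox.

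Several members have duties beyond the particle or late in its assembly. RPL10, which joins the large subunit last and lets the subunits meet, had 550, 551, 533 and 576 FPKM, a change of 0.11. RPL22, a member that is lost in some leukemias, had 598, 558, 588 and 681 FPKM, a change of 0.21 in the MYC-inducible cells and -0.10 in the vector cells. RPL26, which can bind MDM2, had 2978, 3001, 2775 and 3742 FPKM, a change of 0.43 (1.35-fold). RPL23, another protein that binds MDM2, had 2789, 2681, 2542 and 3033 FPKM, a change of 0.25.

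RPL38, known in mice for the translation of Hox mRNAs, had 2901, 2894, 2845 and 3553 FPKM, a change of 0.32 (1.25-fold). RPL3, which reaches into the peptidyl transferase center, had 1633, 1647, 1602 and 1947 FPKM, a change of 0.28 (1.22-fold). RPS6, the substrate of the S6 kinases, had 2961, 2890, 2824 and 3502 FPKM, a change of 0.31 (1.24-fold). All 3 had the same form, with the MYC-inducible cells with Dox above 3 like libraries. RPSA, also known as the laminin receptor, had 1588, 1643, 1457 and 1974 FPKM, a change of 0.44 (1.35-fold). RPS3, which lies at the mRNA entry and has a role in DNA repair, had 1048, 1089, 1019 and 1207 FPKM, a change of 0.25, and RPS4X, encoded on the X chromosome, had 1899, 1871, 1856 and 2132 FPKM, a change of 0.20. The last 2 remained under 1.2-fold.

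Members mutated in Diamond-Blackfan anemia, an inherited failure of red cell production, were treated as a list of 12 genes. Their median change was 0.32 in the MYC-inducible cells, with 8 past 1.2-fold upward, against 21% of all tested genes, and 0.01 in the vector cells, with 0 past it upward, against 3.61%. The list is not complete, and RPS27 and RPS28, which have also been reported in the disease and are not in it, changed by -0.04 and -0.02. RPS19, the member mutated most often in that disease, had 2065, 2129, 2061 and 2571 FPKM, a change of 0.32 (1.25-fold). RPS14, lost in the 5q- syndrome, had 3891, 3976, 3609 and 4307 FPKM, a change of 0.26 that fell just short of 1.2-fold. The list's median lay close to that of all members.

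RPL21 and RPL13A need separate treatment, because an entry named as their pseudogene had a higher level than their own. Ribosomal protein genes have many processed pseudogenes, copies of their mRNA inserted elsewhere in the genome. GENCODE lists 1588 pseudogenes named for members, at least 1 for each of the 77. The table named 30 of them, for 19 members, and 8 of these 30 were at 0 in all libraries. Entries over 100 FPKM were RPL21P28 and RPL13AP5 only.

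RPL21 had 53.5 FPKM in the vector cells without Dox, 33.2 with Dox, 5.64 in the MYC-inducible cells without Dox and 29.9 with Dox. This gave the largest change of any member, 2.38 in the MYC-inducible cells and -0.69 in the vector cells. The first came from the low level in the MYC-inducible cells without Dox and the second from the higher level in the vector cells without Dox. RPL21P28 meanwhile had 2006, 1988, 1918 and 2321 FPKM. Added together, RPL21 and its pseudogene entries had 2059, 2022, 1924 and 2351 FPKM, with 97.4%, 98.4%, 99.7% and 98.7% of it on the pseudogene entries, a change of 0.29 in the MYC-inducible cells and -0.03 in the vector cells. The summed level thus resembled the other members, and the change of the RPL21 entry alone is uncertain.

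RPL13A, which besides its place in the ribosome takes part in silencing inflammatory mRNAs, had 964, 955, 885 and 1350 FPKM, a change of 0.61 (1.53-fold) in the MYC-inducible cells and -0.01 in the vector cells. RPL13AP5 had 7788, 7929, 7258 and 8752 FPKM. The sum with the pseudogene entries was 8765, 8898, 8155 and 10119 FPKM, of which 89.0%, 89.3%, 89.2% and 86.7% was on those entries, and its change in the MYC-inducible cells was 0.31. RPL13A was therefore highest in the MYC-inducible cells with Dox either way, but past 1.5-fold only when its own entry was taken alone. Counted with its copies, RPL13A would have a level near that of RPL41. Besides RPL21 and RPL13A, only RPSA, a small subunit protein, and RPL23A, of the large subunit, had 1% or more of their summed level on pseudogene entries. Entries that join a member to its neighbor were low, the highest being RPL36A-HNRNPH2 with 36.9 to 44.3 FPKM. This entry was named after its values were seen.

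**Figure D5:**
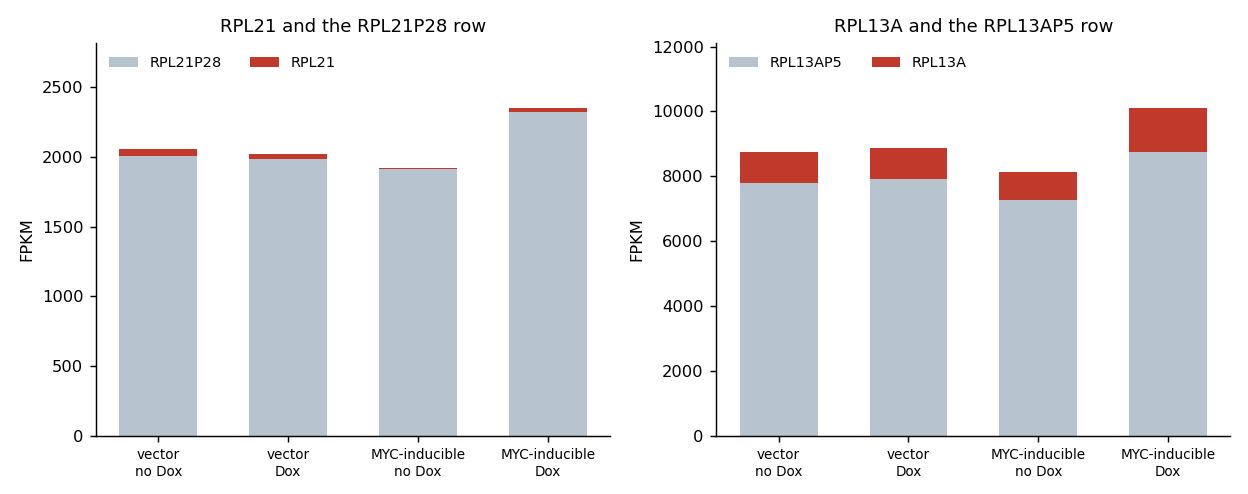
FPKM of RPL21 with RPL21P28 (left) and of RPL13A with RPL13AP5 (right) in the 4 libraries, stacked from 0. The pseudogene entry (grey) makes up nearly the whole column for RPL21 and most of it for RPL13A (red), and both columns are tallest in the MYC-inducible cells with Dox.

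Other features of the genes were set beside the changes without a test. Members with a TOP run at the annotated start had a median change of 0.29 in the MYC-inducible cells, with 31 of 58 past 1.2-fold. Those without it had a median of 0.28, with 10 of 19 past it, against 21% of all tested genes. Many ribosomal protein genes carry small nucleolar RNA genes, which guide the modification of ribosomal RNA, inside their introns. The 29 members with such a gene inside them had a median change of 0.30, with 17 past 1.2-fold. The other 48 had a median of 0.27, with 24 past it, again against 21% of all tested genes. These differences between medians were not tested.

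The promoter windows held other letters at rates of their own. CCGGAAG, the core bound by ETS factors, was found on either strand within 250 bases before to 50 bases after the start in 27 members (35.1%), against 13.9% of other coding genes. ATGGCG, the core of the YY1 motif, was found on either strand in 25 members (32.5%), against 14.5%, and a part of such matches may be the start codon itself. TATAAA was found in 6 members (7.79%), against 9.8%, and CCAAT in 26 (33.8%), against 35.9%, again on either strand. Allowing the TOP run to begin within 5 bases of the annotated start raised its count to 65 members (84.4%), against 19.9% of other coding genes.

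Related genes were counted from lists. Of the other parts of the cytosolic ribosome in the table, FAU had 955, 997, 926 and 1168 FPKM, a change of 0.33 with Dox in the MYC-inducible cells. GNB2L1, an older symbol of the ribosomal scaffold RACK1, had 1869, 1949, 1786 and 2358 FPKM, a change of 0.40. FAU and GNB2L1 both passed 1.2-fold.

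The ribosomal protein like genes are paralogs of members, mostly of lower level and in part restricted to some tissues. Of 8, RPL3L and RPL10L were listed at 0 in all libraries, and 6 were tested, with a median change of 0.31. RPL26L1, the paralog of RPL26, had 119, 119.7, 108 and 152 FPKM, a change of 0.49. RPL22L1 changed by 0.68 and RPL7L1 by 0.52, whereas RPL39L, the paralog of RPL39, had 130, 136, 133 and 98.7 FPKM, a change of -0.43. RPL36AL changed by 0.06 and RPS27L by 0.12, the latter with 0.41 in the vector cells. Past 1.2-fold were 3 of the 6 upward, against 21% of all tested genes, and 1 downward, against 26.1%.

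Chaperones that escort single ribosomal proteins to the sites of assembly formed another list. The median over 8 was 0.54 in the MYC-inducible cells and 0.06 in the vector cells, with 7 past 1.2-fold upward and 0 downward, against 21% and 26.1% of all tested genes. PDCD2L, which like PDCD2 binds RPS2, had 24.9, 26.4, 23.2 and 47.4 FPKM, a change of 1.03, and PDCD2 changed by 0.76. GRWD1, which serves RPL3, changed by 0.64, LTV1, a small subunit assembly factor, by 0.57, and BCCIP, which serves RPL23, by 0.50. AAMP changed by 0.39 and HEATR3, which imports RPL5, by 0.37. TSR2, the chaperone of RPS26, was the exception, at 55.8, 58.6, 56.7 and 50.8 FPKM, a change of -0.16. The levels of these chaperones were lower than that of the median member by more than an order of magnitude.

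Of the partners of the 5S particle, the assembly factors RRS1 and RPF2 changed by 0.61 and 0.55 in the MYC-inducible cells and MDM2, the ligase that the particle can inhibit, by -0.42. MDM2 had 10.2, 9.36, 11.4 and 8.51 FPKM, lowest in the MYC-inducible cells with Dox. Of 9 regulators of TOP mRNA translation, with a median of 0.02, 3 passed 1.2-fold upward, against 21% of all tested genes, and 0 downward, against 26.1%. These were LARP1, which binds the TOP tract, at 21.1, 21.5, 21.1 and 29.5 FPKM (0.49), EIF4EBP1 (0.39) and RPS6KB1, an S6 kinase (0.28). MTOR, RPTOR, RPS6KB2, TSC1, TSC2 and EIF4EBP2 lay between -0.24 and 0.05.

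Other mRNAs that carry a TOP tract, 15 in all, had a median change of 0.24, with 6 past 1.2-fold upward, against 21% of all tested genes, and 2 downward, against 26.1%. The elongation factor subunit EEF1B2 changed by 0.52, with 1007, 950, 984 and 1411 FPKM, and EEF1A1, the most abundant of them, by 0.06. VIM, an intermediate filament protein, had 1956, 1970, 1990 and 1238 FPKM, a change of -0.68, and TPT1 changed by -0.28. These genes were named from a list of more than 10 for having values at its ends.

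The 77 mitochondrial ribosomal protein genes, which serve a separate ribosome encoded by other genes, had a median change of 0.37 in the MYC-inducible cells and 0.05 in the vector cells. Of them 52 were at least 1.2-fold higher and 0 lower in the MYC-inducible cells, against 21% and 26.1% of all tested genes. For the 77 cytosolic members these counts were 41 and 0. Whether these counts differ was not tested, since each condition has 1 library.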

How the data were processed

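RNA-Seq of 4 SK-MEL-28 libraries, 1 per condition, was used. The authors deposited gene levels in FPKM. The submitters' processing notes name TopHat2 2.0.14, Cufflinks and GRCh37 (hg19). The annotation, strand setting and treatment of multiply mapped reads are not given in the sources used here, and the latter can decide how fragments divide between members and pseudogenes. Of 27032 table rows, 1 had no gene name and was left out. Rows of the 609 symbols with several were summed. Values of some genes are not reported here.

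Changes were differences of log2(FPKM + 0.1) between libraries, over genes that averaged 1 FPKM or more. Without replicates no test was made, and past the call means at least 1.2-fold. Members and lists were chosen with earlier results of these data known. Named members were the 8 with the largest and 8 with the smallest difference of the Dox changes, the 5 highest and 5 lowest in level, and 20 with known separate roles. Genes of lists under 10 were named as well.

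Starts and pseudogenes came from GENCODE release 44 on GRCh37, with 1 transcript per gene. Approximate depth came from values under 0.05 FPKM. Fragments of a member were computed from this depth with the coding length in place of the transcript length. Fragments and counting errors are therefore approximate. The calculations were tested on simulated data. Alternatives were other pseudocounts, filters, scalings, thresholds, the reference library, the mean, and leaving out symbols with several rows. Adding pseudogene entries to their member and leaving out RPL21 were chosen after seeing the data. Python 3.11.15, numpy 2.4.6, pandas 2.3.3, matplotlib 3.10.9 and pysam 0.24.0 were used.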

Additional observations from a re-analysis of the deposited data

Results flagged for a closer look

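RPL21 was picked out because its level moved in opposite directions with Dox in the 2 lines, each past 1.2-fold. The change in the MYC-inducible cells minus that in the vector cells was 3.07 on the log2 scale, from 53.5 and 33.2 FPKM in the vector cells and 5.64 and 29.9 FPKM in the MYC-inducible cells, without and with Dox. The difference was not tested, since each condition has 1 library. With its pseudogene entries added, the same difference was 0.32.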

How the results depend on the processing

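No paired analysis was possible because the 4 libraries are 1 per condition. Of 237 recalculated summary values 226 moved by less than a set tolerance (0.106 for log2 values, 5% for shares) or, for counts, by at most 1.5 times, and 11 moved further. Over all alternatives, the median change of the members in the MYC-inducible cells was between 0.22 and 0.32. Its lower end, 0.22, came from setting these cells with Dox against the vector cells with Dox, and is not a change within the line. With libraries of equal sum the median change within the line was 0.24. The median change in the vector cells was between -0.01 and 0.01, and the difference of both changes between 0.24 and 0.32. Rescaling moved the median change of all tested genes to between -0.07 and 0.01. The number of members past the threshold in the MYC-inducible cells was 30 with libraries of equal sum, 50 with equal sums outside the members, 2 at 1.5-fold and 64 at 1.1-fold. With pseudogene entries added, the lower member in the vector cells was lost, leaving 0, as it was without RPL21, also 0, and the share of the members was 29.4% in the vector cells without Dox and 29.3% with Dox, and 28.8% and 33.1% in the MYC-inducible cells. Without the filter the median of the ribosomal protein like genes was 0.0917, since more genes were counted. Against the vector cells with Dox, the median was 0.23 for other ribosome components and 0.15 for the like genes. It was 0.55 for the partners of the 5S particle and -0.45 for the melanocyte markers. RPL21 reversed to -0.15, with 29.9 FPKM in the MYC-inducible cells with Dox against 33.2 FPKM in the vector cells with Dox. Why the lines differed was not tested. Depth limits RPL21 most, with an approximate counting error of 0.147 in the MYC-inducible cells.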
